A study of Mus musculus with 4 samples.

Results

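The eosinophil-associated ribonuclease (Ear) genes encode small secreted enzymes of the RNase A superfamily, which cut single-stranded RNA. They are the mouse counterparts of human eosinophil-derived neurotoxin and eosinophil cationic protein, and they are known as eosinophil granule proteins that macrophages can also make. In mice the family has expanded by repeated duplication into a cluster of near-identical genes on chromosome 14, so that single members are hard to tell apart by hybridization. The members were found as the non-control probes whose gene name in the array annotation was Ear followed by a number. There were 9 of them, for 9 genes, among 55681 probes. Ear1, Ear2, Ear10, Ear11 and Ear12 formed a core of 5, picked with their ratios on these arrays in view, and Ear4, Ear5, Ear6 and Ear7 were the other 4.

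Expression was measured in bone marrow-derived macrophages (BMDMs) of 10-week-old C57BL/6J mice on 4 one-colour arrays, 1 array per condition. All cultures were differentiated for 6 days with supernatant of L929 cells, a source of M-CSF, and then stimulated for 2 days. M2 polarization used IL-4, at 50 ng per ml, on wild-type BMDMs, and M1 polarization used IFN-γ (20 ng per ml) plus LPS (100 ng per ml). The labels give the Lamtor1-deficient BMDMs as p18 (2400001E08Rik) -/-, and these cells received the same IL-4. A further wild-type culture received IL-4 together with Torin1 at 250 nM. Lamtor1 anchors the Ragulator complex to lysosomes, where mTORC1 is activated, and Torin1 blocks the kinase mTOR. The study's methods describe deletion by LysM-Cre, which acts in myeloid cells, in Lamtor1 flox/flox mice. They name flox/flox littermates without Cre as controls, whereas the labels call the controls wild type. No culture was measured again, so the spread between mice or cultures is unknown and no test between conditions was possible.

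Signals are given as the processed signal of a probe, in arbitrary units, and ratios after each array was divided by its 75th percentile over all non-control probes. That percentile was highest in M2, at 595, followed by 537 after Lamtor1 loss, 473 with Torin1 and 289 in M1. Probes differ in how strongly they bind, so a ratio was always taken between arrays for 1 probe, and signals of different probes were set together only to choose the brightest probe of a gene and to sum a gene list on an array. A probe was taken as detected where the scanner software called it well above background, and 51.0 to 55.5% of the probes were detected on an array. Probes spotted at least 8 times gave a technical SD of log2 ratios to M2 of 0.090 (Lamtor1 loss), 0.092 (Torin1) and 0.098 (M1). Each Ear probe had 1 spot, whose error was put by the scanner software at 10.0 to 14.8% of the signal of a core probe. The targeted gene, 2400001E08Rik (Lamtor1), had a signal of 39460 in M2, 833 in Lamtor1-deficient BMDMs, 35232 with Torin1 and 14688 in M1, so the deficient array carried the lowest level.

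The 60-base probes of the Ear genes overlap in sequence, so a probe may also bind transcripts of other members. Of the 9 probes, 7 shared a run of at least 15 bases with another Ear probe, and 7 of the 36 pairs did so. The probes of the Ear1, Ear10 and Ear12 genes are shown whole because their shared stretches join several members. Capitals mark bases within runs of at least 15 that also occur in another Ear probe.
Ear1 probe: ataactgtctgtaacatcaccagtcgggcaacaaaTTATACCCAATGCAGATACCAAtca
Ear10 probe: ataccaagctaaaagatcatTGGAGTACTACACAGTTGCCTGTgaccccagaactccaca
Ear12 probe: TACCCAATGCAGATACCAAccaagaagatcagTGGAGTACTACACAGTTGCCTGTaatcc
The Ear12 probe shared 42 of its 60 bases in this way with 4 other probes, namely those of Ear1, Ear4, Ear7 and Ear10. Its longest common run, of 23 bases, was with Ear10, and the best ungapped overlap of these probes matched at 42 of 48 bases. With Ear1 it shared a run of 19 bases. The Ear2 probe shared nothing of this length with the rest of the core, and it had 23 bases in common with the Ear6 probe. The matching stretches of the Ear2 and Ear6 probes follow, with the same use of capitals, and then a stretch of the Ear11 probe, which has none.
Ear2 probe, bases 31 to 60: taattttGCTGAATAGATCTTTTCTAATTA
Ear6 probe, bases 23 to 52: GCTGAATAGATCTTTTCTAATTAataaaca
Ear11 probe, bases 1 to 30: gatattttagctccagtgccagcactttgt
Ear2 and Ear6 matched at 40 of 45 bases in their best overlap. The array annotation lists the accessions of both Ear2 and Ear1 for the Ear2 probe, so this probe is annotated to both transcripts. Only the probes of Ear11 and Ear5 shared no run of at least 15 bases with another Ear probe on the array. The comparison covers probe against probe, and the whole transcripts were not used here. It therefore does not show which transcripts a probe binds, also for a probe without a shared run.

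On the mm9 coordinates of the array annotation, the probes lay on chromosome 14 in 2 groups separated by 7.1 Mb. The first group held Ear1 (chr14:44396709-44396768, minus strand), Ear10 (chr14:44500615-44500674, minus), Ear12 (chr14:44680899-44680958, plus) and Ear2 (chr14:44681119-44681178, plus), and spanned 284 kb. The second held Ear5 (chr14:51782432-51782491, plus), Ear4 (chr14:51823711-51823770, plus), Ear11 (chr14:51875064-51875123, minus), Ear7 (chr14:52473974-52474033, plus) and Ear6 (chr14:52474253-52474312, plus), and spanned 692 kb. The Ear12 and Ear2 probes lay on the same strand with 160 bases between them, and so did the Ear7 and Ear6 probes with 219 bases between them. Whether each of these pairs reads 1 locus or 2 cannot be told apart here. In the RefSeq table, on the GRCm38.p6 assembly, the accession of Ear11 belongs to Rnase2a and that of Ear5 to Rnase2b. A second accession of the Ear4 probe belongs to Ear14 there, and Ear7 and Ear12 had no match. The Ear12 probe also carries a second RefSeq accession, which had no match either. The annotation gives no exon or UTR for the probes.

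In M2 BMDMs all 5 core probes were detected with high signals, and on each of the other 3 arrays their signals were far lower. The Ear1 probe had a signal of 69670 in M2, 340 in Lamtor1-deficient BMDMs, 657 with Torin1 and 62.0 in M1. For the Ear2 probe the signals were 202375 in M2, 1422 in Lamtor1-deficient BMDMs, 2010 with Torin1 and 140 in M1. The Ear12 probe gave 89900, 431, 662 and 43.2, in the same order of arrays. In these 3 probes M2 was highest, Torin1-treated BMDMs came next, then Lamtor1-deficient BMDMs, and M1 was lowest. The Ear10 probe gave 103942 in M2, 2735 in Lamtor1-deficient BMDMs, 618 with Torin1 and 66.4 in M1. The Ear11 probe, for the gene that RefSeq names Rnase2a, gave 219153 in M2, 9490 in Lamtor1-deficient BMDMs, 886 with Torin1 and 276 in M1. Ear10 and Ear11 shared the highest and the lowest array with the other 3, but the Lamtor1-deficient culture was above the Torin1-treated one. All core signals in M1 were still called well above background. In RNA of a whole culture, fewer cells of a type and less RNA per cell cannot be told apart.

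**Figure D1:**
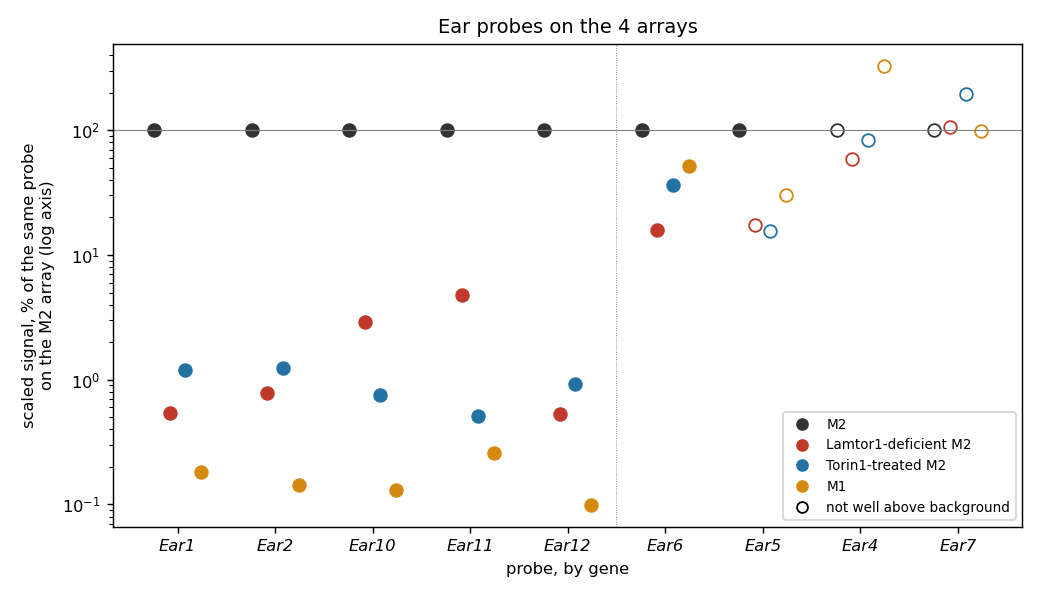
Scaled signal of each Ear probe on the 4 arrays as a percentage of the same probe on the M2 array, on a log axis. Filled points were well above background and open points were not. The 5 core probes, left of the dotted line, lie at 0.532 to 4.80% of M2 after Lamtor1 loss, 0.508 to 1.25% with Torin1 and 0.0992 to 0.26% in M1.

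Relative to M2, the scaled core signals were 20.8- to 188-fold lower in Lamtor1-deficient BMDMs, 80.1- to 197-fold lower with Torin1 and 385- to 1008-fold lower in M1. The median log2 ratio of the core was −7.00 for Lamtor1-deficient BMDMs, −6.76 for Torin1 and −9.45 for M1, beside medians over all non-control probes of 0.04, −0.02 and 0.83. For M1 the median over all probes was 0.80 with the percentile taken over probes detected on all arrays and 0.85 with normexp background correction. A shift to array medians, which centres all probes by construction, gave 0.01, with the core median at −10.27. The 3 ratios share the M2 array, so a high M2 signal enters each of them. These values also chose the core and are given as a description.

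Counted over all 9 Ear probes by their measured signals, detected or not, 7 were lower than M2 by at least 2-fold in Lamtor1-deficient BMDMs, where 8.77% of all probes were. With Torin1 the count was again 7 of 9, against 9.39% of all probes, and in M1 it was 6 of 9, against 13.9%. Each count includes Ear5, which was detected in M2 alone and for which a 2-fold difference is not shown, and with detection on both arrays required the counts were 6, 6 and 5. No Ear probe was at least 2-fold higher than M2 after Lamtor1 loss (7.82% of all probes) or with Torin1 (16.4%), and only that of Ear4 was in M1 (35.3%), where it was not detected. The core choice used these ratios, so the counts describe the family and test nothing. Among the 26651 probes detected both in M2 and in Lamtor1-deficient BMDMs, Ear12 had the lowest ratio of all, Ear1 the second lowest and Ear2 the third lowest, with Ear10 at rank 26 and Ear11 at rank 53. Among 27308 probes for Torin1 the order changed, with Ear11 at rank 5, Ear10 at rank 9, Ear12 at rank 13, Ear1 at rank 20 and Ear2 at rank 21. In M1 the 5 core probes took ranks 3 to 8 of 25578.

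Outside the core, the Ear6 probe was detected on all arrays, with signals of 370 in M2, 52.9 in Lamtor1-deficient BMDMs, 107 with Torin1 and 92.1 in M1. Its log2 ratio to M2 was −2.66 for Lamtor1-deficient BMDMs, −1.46 for Torin1 and −0.96 for M1, the last just short of 2-fold. For M1 it was −1.78 with a shift to array medians and −1.22 with quantile normalization, both past 2-fold, and −0.57 with normexp. M2 was again the highest array for Ear6, and the order of Torin1 and M1 turned with the scaling. Because of the bases it shares with the Ear2 probe, the part of Ear2 transcripts in the Ear6 signal was not tested. The Ear5 probe, for the gene RefSeq names Rnase2b, had a signal of 31.8 in M2 and was detected on that array alone, with 5.01 in Lamtor1-deficient BMDMs, 3.94 with Torin1 and 4.65 in M1. Against the lowest detectable signal this was at least 1.43-fold lower in Lamtor1-deficient BMDMs and at least 1.61-fold lower with Torin1, and no fold can be given for M1. Ear4, with signals of 4.85 to 14.5, and Ear7, with signals of 4.65 to 15.04, were not well above background on any array, so no ratio is given for them. For Ear7, which shares 20 bases with Ear1, this held also on the M2 array.

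The Lamtor1-deficient and Torin1-treated arrays were also compared directly, a ratio in which M2 has no part. The core split into 2 patterns. Ear11 was 9.44-fold higher in Lamtor1-deficient than in Torin1-treated BMDMs, with a log2 ratio of 3.24, and Ear10 was 3.90-fold higher, with a log2 ratio of 1.96. Ear1 was 2.19-fold lower in Lamtor1-deficient BMDMs (−1.13), Ear12 1.74-fold lower (−0.80) and Ear2 1.60-fold lower (−0.68). Ear6 was 2.30-fold lower (−1.20). The technical SD of this ratio over repeated spots was 0.092, and the scanner software put the error of the single spots behind these ratios at 10.0 to 13.3% of the signal. Neither covers the spread between cultures. Of probes detected on both arrays, 11.2% were at least 2-fold higher in the Lamtor1-deficient and 12.2% at least 2-fold lower.

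**Figure D2:**
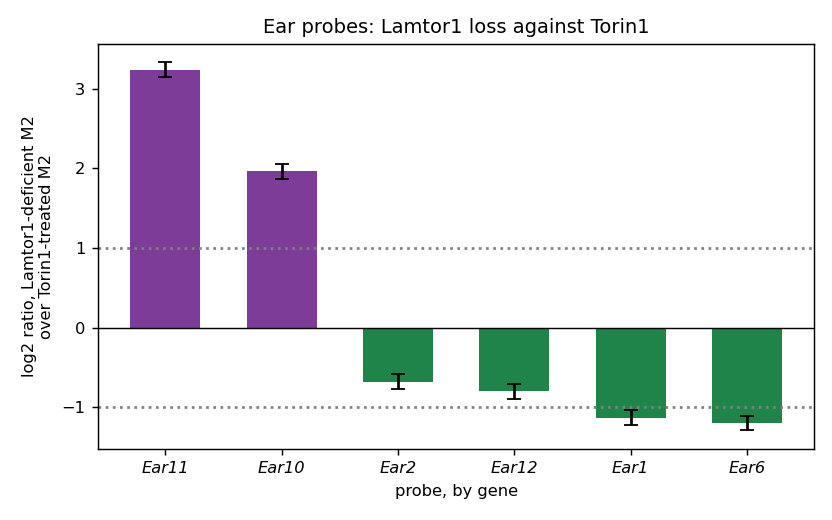
Log2 ratio of Lamtor1-deficient over Torin1-treated BMDMs for the 6 Ear probes well above background on both arrays. Bars start at 0, error bars are 1 technical SD of a log2 ratio (0.092), and dotted lines mark 2-fold. Ear11 and Ear10 lie above 2-fold, whereas Ear2, Ear12, Ear1 and Ear6 lie between −0.68 and −1.20.

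The signs of all 6 direct ratios were kept under each scaling and background correction tried. Ear11 ranged from 3.08 to 3.54 and Ear10 from 1.81 to 2.27. The 2-fold difference of Ear1 was not kept, as its ratio was −0.83 when arrays were scaled by their medians, and that of Ear6 was −0.67 with normexp background correction. The Ear10 and Ear12 probes, the core pair that shares the most bases, had ratios of 1.96 and −0.80. The Ear11 probe shared no run of at least 15 bases with another Ear probe. On the low side, the Ear2 probe is annotated to Ear1 as well, and the Ear12 probe shares 19 bases with the Ear1 probe. The Ear12 probe also lies 160 bases from the Ear2 probe. The part of transcripts read by more than 1 probe in either pattern was not tested.

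The 250 bases before the annotated start were compared for the members in the RefSeq table. Windows were present for 6 of the 9 array genes (Ear1, Ear2, Ear10, Ear11, Ear5 and Ear6) and for Ear14. The 3 shown stand for both patterns of the direct comparison, with Ear2 on the low side and Ear10 and Ear11 on the high side. Capitals mark the longest run of bases present in all 6 windows, 13 bases long, which ends 101 to 145 bases before the start.
Ear2 upstream window: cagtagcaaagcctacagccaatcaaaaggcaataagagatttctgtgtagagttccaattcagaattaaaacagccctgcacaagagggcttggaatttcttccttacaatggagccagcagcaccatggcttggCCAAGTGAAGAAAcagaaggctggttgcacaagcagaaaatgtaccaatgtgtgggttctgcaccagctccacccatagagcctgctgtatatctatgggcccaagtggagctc
Ear10 upstream window: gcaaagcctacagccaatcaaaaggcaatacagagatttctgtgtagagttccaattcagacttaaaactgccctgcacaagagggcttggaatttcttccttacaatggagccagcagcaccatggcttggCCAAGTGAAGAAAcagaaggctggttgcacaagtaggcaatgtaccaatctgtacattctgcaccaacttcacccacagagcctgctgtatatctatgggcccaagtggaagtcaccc
Ear11 upstream window: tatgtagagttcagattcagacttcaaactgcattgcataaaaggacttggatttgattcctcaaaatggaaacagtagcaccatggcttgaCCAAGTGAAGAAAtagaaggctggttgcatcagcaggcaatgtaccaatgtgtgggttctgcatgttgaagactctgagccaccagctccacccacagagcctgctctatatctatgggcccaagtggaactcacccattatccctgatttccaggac
On GRCm38.p6 these windows are chr14:44102404-44102653 (plus strand), chr14:43923597-43923846 (minus) and chr14:51256113-51256362 (minus). Identity over the aligned windows was 97.6% for Ear1 and Ear2, 91.0% for Ear2 and Ear10, and 60.9% for Ear2 and Ear11, the lowest of the 15 pairs without Ear14. Ear14 was 48.2 to 53.6% identical to the others and lacked the run. Of all 32851 windows in the table, 7 (0.0213%) held the 13-base run on either strand, 6 of them those of the Ear genes in which it was found.

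Searched on both strands, the C/EBP-type motif TTGCNNAA was present upstream of Ear1, Ear2, Ear10, Ear11 and Ear5, that is in 5 of 7 Ear windows, and in 9.56% of all windows. CCAAT was present in 6 of 7 Ear windows and in 33.8% of all. The STAT6-type element, TTC and GAA with 4 bases between them, was in no Ear window and in 5.85% of all windows, and TTCNNNGAA was found only for Ear14, beside 7.02% of all. TATAAA (12.4% of all windows), the AP-1 motif TGANTCA (6.75%), CACGTG (6.02%) and the direct repeats of AGGTCA with 1 base (0.0335%) or 4 bases (0.0152%) between copies were in none of the 7. No matches of different motifs overlapped in the Ear windows. The windows are copies of one another and are not independent, and a match or its absence describes these letters only.

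Other members of the RNase A superfamily lie between the Ear genes on chromosome 14. They include the angiogenins, Rnase4, which shares a locus with Ang, and Rnase6, an antimicrobial ribonuclease of monocytes and macrophages. Rnh1, the cytoplasmic inhibitor that binds and blocks these enzymes, was listed with them. Of 17 genes listed, 13 were on the array under these names. In Lamtor1-deficient BMDMs 1 of the 13 was at least 2-fold lower and 1 higher, where 8.77% of all genes were lower and 8.93% higher. With Torin1 6 were lower and 2 higher (11.8 and 14.2% of all genes), counting Rnase13, which was not detected in M2, and in M1 6 were lower and 4 higher (19.2 and 30.6%), counting 1 of the 4 that was not detected. The list median was −0.21 for Lamtor1-deficient BMDMs, −0.11 for Torin1 and −0.27 for M1, beside 0.04, −0.06 and 0.75 over all genes.

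Rnase6 was the relative closest to the core in size. Its probe was spotted 10 times and had mean signals of 1210 ± 223 (SD over 10 spots) in M2, 43.9 in Lamtor1-deficient BMDMs, 15.6 with Torin1 and 23.5 in M1. The log2 ratio to M2 was −4.64 in both Lamtor1-deficient BMDMs and M1, and with Torin1, where the probe was not detected, the signal was at least 61.1-fold lower. Rnase6 thus had M2 as its highest array and lay far below it on the other 3, as the core did. Rnase4, with signals of 1293 in M2, 772 in Lamtor1-deficient BMDMs, 157 with Torin1 and 123 in M1, had log2 ratios of −0.60 for Lamtor1-deficient BMDMs, −2.72 for Torin1 and −2.35 for M1. Ang, the angiogenin that stimulates vessel growth, gave −0.54, −2.01 and −1.98 in the same order. Ang2, Ang3 and Ang4 ranged from −0.21 to −0.99 for Lamtor1-deficient BMDMs and from −1.29 to −2.25 for Torin1. Each of these angiogenin and Rnase4 probes was thus lower by at least 2-fold with Torin1 and by less than that after Lamtor1 loss. In M1 Ang4 gave −1.68, the Ang3 probes −1.31 and −2.55, and Ang2 was at least 8.80-fold lower.

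Rnh1, the inhibitor, went the other way, with a signal of 20727 in M2, 66384 in Lamtor1-deficient BMDMs, 23182 with Torin1 and 30993 in M1. Its log2 ratios to M2 were 1.83, 0.49 and 1.62, in that order. Rnase10, known from the epididymis, gave −0.77, 1.37 and 1.51. Rnase1, the pancreatic-type ribonuclease, was detected with Torin1 and in M1 alone, at least 1.39- and 3.53-fold higher than in M2, and Rnase13 with Torin1 alone, at least 1.96-fold higher. Rnase9, Rnase11 and Rnase12 were not well above background on any array. Among 13 ribonucleases of other families, 0 were at least 2-fold lower and 1, Rnaseh2b, was higher (1.30) in Lamtor1-deficient BMDMs (8.77 and 8.93% of all genes). With Torin1 0 were lower and 1, Rnaseh1, was higher (1.01; 11.8 and 14.2% of all genes). In M1 4 were lower and 3 higher (19.2 and 30.6%), from Rnaseh2a (−2.76) to Zc3h12a (1.91).

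**Figure D3:**
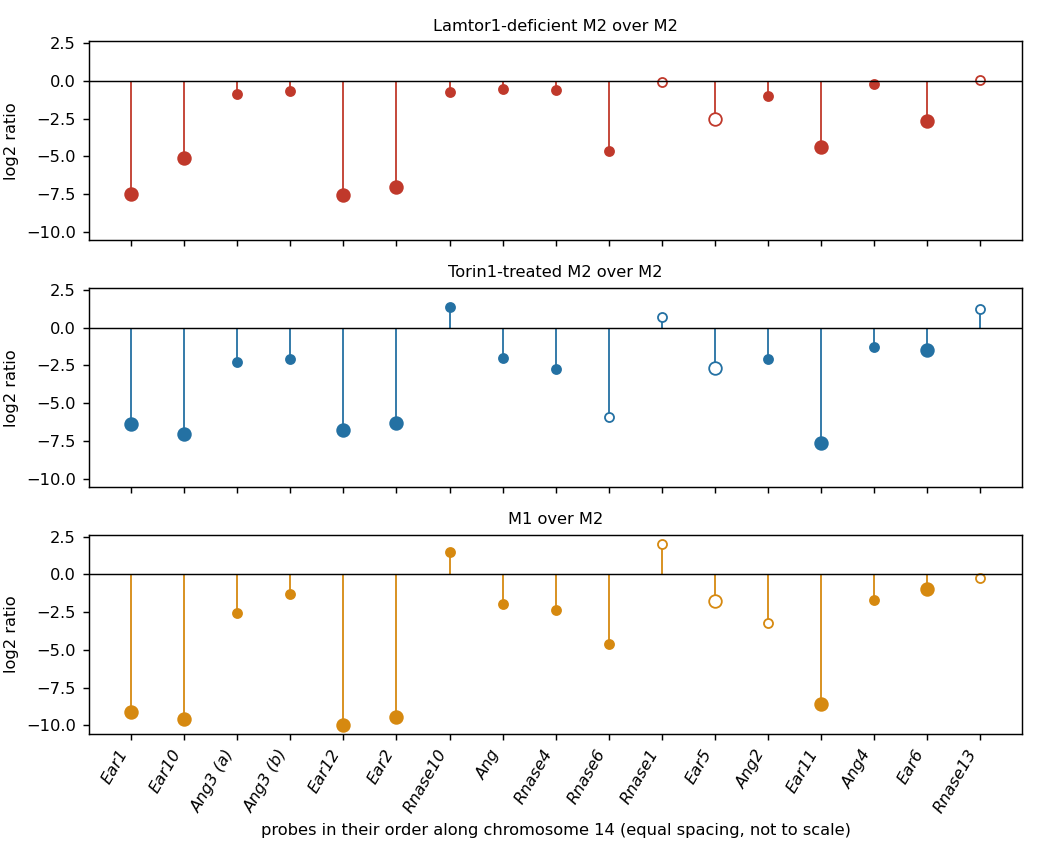
Log2 ratio to M2 of the Ear probes (large points) and of other RNase A superfamily probes (small points) detected on any array, in their order along chromosome 14 with equal spacing. Filled points were detected on the array shown and on M2, and open points on at most 1 of them. In the panel of Lamtor1-deficient BMDMs the angiogenin, Rnase4 and Rnase10 probes lie between −0.21 and −0.99, beside core Ear probes at −4.38 to −7.56. The Rnase6 probe lies within the core range there, at −4.64.

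IL-4 acts through Il4ra, Jak kinases and the transcription factor Stat6, and its known targets served as a setting for the Ear values. Of 16 genes of the IL-4 pathway, all detected, 1 was at least 2-fold lower (Myc, −1.35) and 1 higher (Il13ra1, 2.18) in Lamtor1-deficient BMDMs, with a median of −0.23, where 8.77% of all genes were lower and 8.93% higher. With Torin1 6 were lower, the lowest being Klf4 (−4.08), and 1 was higher (Irs2, 1.14), with a median of −0.63, beside 11.8 and 14.2% of all genes. In M1 6 were lower and 6 higher, from the transcription factor Egr2 (−8.27) to Il13ra1 (3.58), with a median of 0.73, beside 19.2 and 30.6% of all genes. Stat6 itself, named after its values were seen, differed from M2 by 0.06 after Lamtor1 loss and by 0.07 with Torin1. Of 21 IL-4-induced genes on the array, 11 were lower and 4 higher in Lamtor1-deficient BMDMs, where the chemokine Ccl22 was at least 39.2-fold higher. With Torin1 10 were lower and 1 higher, from Retnla (at least 20187-fold lower) to Mmp12 (1.53). In M1 15 were lower and 4 higher, from Retnla (at least 10308-fold lower) to Il10 (4.75), and 1 of the lower and 1 of the higher genes were detected on neither array. The list medians were −1.34, −0.96 and −4.14 in turn, and the first was −0.40 when genes were read from the median over their probes. The shares over all genes are those given for the pathway (8.77, 11.8 and 19.2% lower, and 8.93, 14.2 and 30.6% higher). Chi3l3, another M2 marker and also named after its values were seen, had signals of 290106 in M2, 305257 in Lamtor1-deficient BMDMs, 266312 with Torin1 and 28.6 in M1. It shared the high M2 and low M1 levels of the Ear core and not their low levels after Lamtor1 loss or with Torin1.

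The 5 genes with the profile nearest to that of the Ear probes were found by the distance between the 4 log2 signals of a gene and the median profile of the 7 Ear probes detected in M2, each centred on its mean, over 14907 other genes. They were Slc36a2, a proton-coupled amino acid transporter (distance 1.00), the nuclear corepressor Hr (1.32), Plxdc2, a transmembrane protein with a plexin domain (1.43), Ltf, the lactoferrin of neutrophil granules (1.52), and the ABC transporter Abca9 (1.63). Slc36a2 had signals of 3659 in M2, 59.7 in Lamtor1-deficient BMDMs, 38.5 with Torin1 and 7.14 in M1, where it was not detected. Plxdc2, detected on every array, gave 129008, 1520, 923 and 325, with log2 ratios to M2 of −6.26 for Lamtor1-deficient BMDMs, −6.80 for Torin1 and −7.59 for M1. Ear1 (0.58), Ear2 (0.42) and Ear12 (0.81) lay nearer to the median profile than the 5 genes did. Ear10 (2.02), Ear11 (2.75), Ear5 (5.09) and Ear6 (5.62) lay farther from it. The profile is thus mainly that of Ear1, Ear2 and Ear12, and not of the whole core. With the 5 core probes as the target, the same 5 genes were nearest. Signals below detection entered the distances as measured, which for the 7 probes holds for Ear5 on every array but M2, and among the 5 genes for all but Plxdc2 in M1 and for Hr also in Lamtor1-deficient BMDMs. The genes are thus a description, with 4 values per gene, of profiles high in M2, where detection was required.

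**Figure D4:**
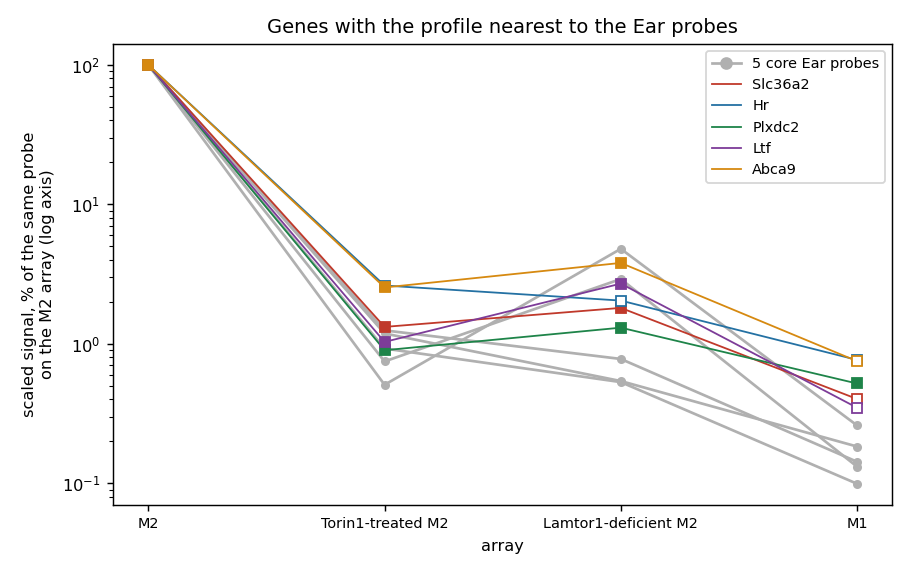
Scaled signal as a percentage of the M2 array, on a log axis, for the 5 core Ear probes (grey) and the 5 genes of nearest profile, over the 4 arrays. Open squares were not well above background. All 10 lines lie at 0.508 to 2.62% of M2 with Torin1 and at 0.532 to 4.80% in Lamtor1-deficient BMDMs.

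Ear transcripts can also come from eosinophils or other granulocytes in a bone marrow culture, so the markers of these cells were read on the same arrays. Of 9 eosinophil markers on the array, Epx and Prg3, genes of the eosinophil granule, and Gata1 were not well above background on any array, including M2. Prg2, the major basic protein of the same granule, had signals of 52.4 in M2, 26.0 in Lamtor1-deficient BMDMs, 4.14 with Torin1 and 21.7 in M1, and the last 2 were not detected. Ccr3, the eotaxin receptor, was also highest in M2, at 1552, 20.9, 41.0 and 183 in the same order of arrays, the second not detected. Its log2 ratio was −4.91 for Torin1 and −2.04 for M1, and it was at least 66.9-fold lower in Lamtor1-deficient BMDMs. Of the arrays below M2, M1 was thus the highest for Ccr3 and the lowest for the core. Siglec5 had its highest level in Lamtor1-deficient BMDMs, with a log2 ratio of 1.93, and its lowest in M1 (−4.61). Over the list, 5 of 9 markers were detected in M2 and in M1 and 3 of 9 on the other 2 arrays. In Lamtor1-deficient BMDMs 3 were at least 2-fold lower than M2 and 2 higher, with Torin1 4 were lower and 2 higher, and in M1 2 were lower and 2 higher, with medians of −0.66, −0.12 and 0.36. Of the 2 higher ones, 1 was detected on neither array in Lamtor1-deficient BMDMs and again with Torin1. Over all genes 8.77, 11.8 and 19.2% were lower and 8.93, 14.2 and 30.6% higher on these arrays, so the 2 and 2 of 9 in M1 lay near or below the shares of all genes. The summed scaled signal of the list ranged from 2.68 in M1 to 10.2 in Lamtor1-deficient BMDMs, with 6.75 in M2, and Siglec5 alone made 9.98 of the 10.2.

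Of 11 neutrophil markers on the array, 8 were at least 2-fold lower than M2 and 1 was higher in Lamtor1-deficient BMDMs (8.77 and 8.93% of all genes). With Torin1 7 were lower and 3 higher (11.8 and 14.2%), counting Cxcr2, which was detected on neither array, and in M1 7 were lower and 1 higher (19.2 and 30.6%). The medians were −2.21, −2.24 and −2.05. The lower ones included Ltf, with log2 ratios of −5.21 for Lamtor1-deficient BMDMs and −6.60 for Torin1. Elane, the neutrophil elastase, was the 1 marker at least 2-fold higher in M1 (2.06). The summed scaled signal of the list was 104 in M2, 25.2 in Lamtor1-deficient BMDMs, 37.6 with Torin1 and 57.8 in M1, with 9, 11, 10 and 7 of 11 markers detected. By this sum the list was highest in M1 of the 3 arrays below M2, and the Ear core was lowest there. The order turned with the measure. Read from the median over the probes of a gene, the list median in M1 was −2.35, the lowest of the 3, and M1 had the fewest markers detected. The macrophage list was detected in full, 10 of 10, on every array, with a summed scaled signal of 660 to 937, and the labelled cell type was thus present in its markers. Of the 10, 3 were at least 2-fold lower than M2 on each of the other 3 arrays and 1 was higher, in M1 alone, with medians of −0.59 for Lamtor1 loss, 0.05 for Torin1 and −0.04 for M1. Read from the median over the probes of a gene, the first 2 medians were −0.91 and −0.89. Fcgr1 was the lowest of them both after Lamtor1 loss (−4.96) and with Torin1 (−4.62). The summed scaled signal of the Ear core was 1151 in M2, 26.8 in Lamtor1-deficient BMDMs, 10.2 with Torin1 and 2.04 in M1, that is 2.33, 0.887 and 0.177% of M2 on the last 3 arrays. The part of neutrophils or eosinophils in the Ear signals was not tested.

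**Figure D5:**
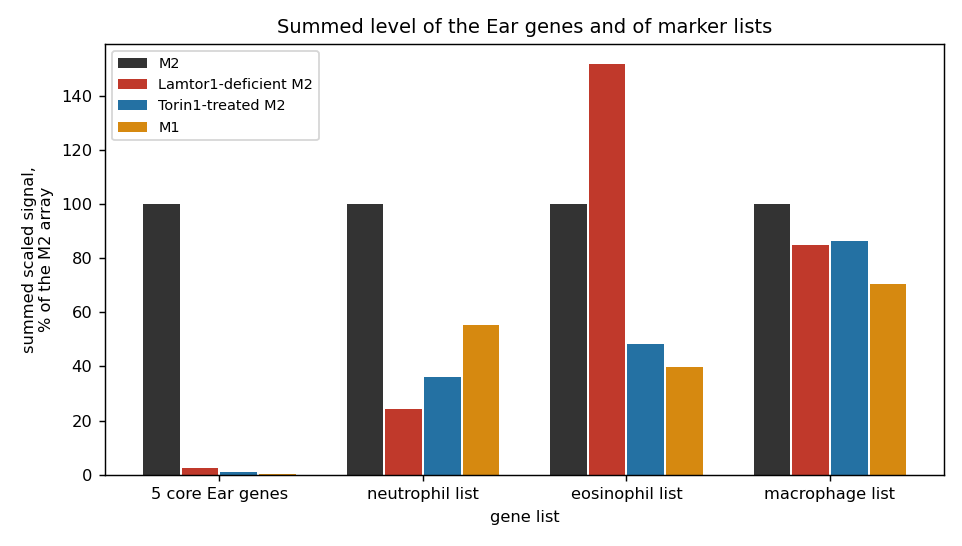
Summed scaled signal of the 5 core Ear genes and of 3 marker lists on each array, as a percentage of the M2 array. The axis starts at 0 and there is 1 array per bar. The neutrophil list was at 24.1% after Lamtor1 loss, 36.0% with Torin1 and 55.3% in M1, and in that order the eosinophil list was at 151, 48.2 and 39.8%, the first carried by Siglec5 (9.98 of a summed 10.2), and the macrophage list was at 70.4 to 86.5%.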

How the data were processed

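RNA of 4 BMDM cultures, 1 per condition, was hybridized to Agilent 8 x 60K whole mouse genome arrays in 1 colour. The deposited scanner files hold spot intensities that the authors extracted with Agilent Feature Extraction, named as version 10.5.1.1 in the submitters' processing notes and as 10.7.3.1 in the file headers. The processed intensity is corrected for background within an array and not normalized between arrays. A second deposited table repeats these intensities within 0.497%.

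Control spots and outlier spots were left out, spots of a probe were averaged, signals below 1.0 were set to 1.0, and each array was divided by its 75th percentile over 55681 probes. The percentile and the minimum of 1.0 follow the study's methods, and the 2-fold threshold is the one the study used. Ratios are given on the log2 scale. Where 1 side was not well above background, the bound used the lowest detected signal of that array (15.7 to 21.6), or the probe's own signal there where that was higher. Genes with several probes were read from the brightest. Shared runs of at least 15 bases were found on the probe sequences, and promoter windows came from a RefSeq table on GRCm38.p6. All 4 arrays lie on 1 slide with 1 scan time. On simulated data the scaling and the 2-fold call recovered 200 of 200 changed probes of 55681 and called 0 unchanged ones. This checks the calculation only. It gives no error rate for the 2-fold counts, because the spread between cultures is unknown.

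The members and gene lists were chosen with earlier results of these data known. Named were every Ear gene, each detected RNase A relative and Rnh1, Lamtor1, the extremes of each other list and the 5 genes of nearest profile. Alternatives were a shift to the median, quantile normalization, another percentile population, normexp with an offset of 50, a floor, outlier spots kept, the series table, filters on dim probes, a 3-fold threshold and another rule for several probes. R 4.3.3 with limma 3.58.1, Python 3.11.15, NumPy 2.4.6, pandas 2.3.3, Biopython 1.88 and matplotlib 3.10.9 were used.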

Additional observations from a re-analysis of the deposited data

Results flagged for a closer look

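A probe without a gene name in the annotation, on chr14:44546783-44546842 (mm9, minus strand) among the Ear genes, carried a signal outside the named members. It shares a run of 20 bases with the Ear4 probe. Its signal was 324 in M1, 58.6 in M2, 14.02 after Lamtor1 loss and 6.90 with Torin1, well above background in M1 and M2 only. After scaling it was 11.4-fold higher in M1 than in M2, where the 5 core Ear probes were 385- to 1008-fold lower. No condition was free of treatment, so the comparison is with the other arrays.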

How the results depend on the processing

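No paired analysis was possible because each group had 1 array. The counts of Ear probes lower than M2 by at least 2-fold stayed within 1.5 times of the reported ones under every alternative run. No core ratio changed sign in 140 comparisons with an alternative, of which 50 moved by more than the technical SD. The floor and the kept outlier spots left every core ratio as it was, and the series table repeats the same intensities. The comparisons with these alternatives thus could not change a sign. The core median moved to −7.42 for Lamtor1-deficient BMDMs under quantile normalization. For Torin1 it was −7.00 with a shift to the median, −6.94 with quantile normalization and −6.63 with normexp, and for M1 −10.27, −9.94 and −8.66. For Lamtor1-deficient over Torin1-treated BMDMs it was −0.38 with the median shift, −0.78 with quantile normalization and −0.84 with the percentile taken over probes detected on all arrays. The log2 ratio of Ear5 in M1 over M2, −1.73 from signals near background, turned to 0.42 with normexp and to 0.28 with a floor. Reading a gene from the median over its probes moved the IL-4 pathway median to −0.49 for Torin1 and 1.01 for M1, the IL-4-induced median to −0.40 for Lamtor1-deficient BMDMs, −0.72 for Torin1 and −3.84 for M1, the macrophage median to −0.91 and −0.89 for Lamtor1 loss and Torin1, the median of the inflammatory genes of M1 macrophages to −0.017 for Lamtor1-deficient BMDMs and −0.10 for Torin1, the neutrophil median to −2.35 for M1, and the lymphocyte and the mast cell and basophil medians to 0.99 and −0.51 for Lamtor1-deficient BMDMs. The cause of these moves was not tested. A shift to array medians moved the median of all probes by −0.82 for M1 and −0.24 for Torin1, and normexp by 0.26 for Torin1. Signal over background limits Ear4, Ear5 and Ear7, and 1 array per condition limits every ratio.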

Other observations

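Other cell types of a marrow culture were read from further lists, as values only. Of 6 fibroblast markers, 2 were at least 2-fold higher and 0 lower than M2 in Lamtor1-deficient BMDMs, 4 were lower and 0 higher with Torin1, and 5 were lower and 1 higher in M1, with medians of 0.43, −1.66 and −2.52. Over all genes 8.77, 11.8 and 19.2% were lower and 8.93, 14.2 and 30.6% higher. Of 8 mast cell and basophil markers, 3 were detected in M2, and the medians were −0.69, −0.64 and −0.08. Of 8 lymphocyte markers, 4 were detected in M2, with medians of 0.05, −0.17 and 0.82, the first of which was 0.99 when genes were read from the median over their probes. The 18 inflammatory genes of M1 macrophages had medians of −0.13, 0.09 and 5.25.

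Probes of genes outside the family also share runs with Ear probes. Nos3 shares 15 bases with the Ear6 probe on the same strand and had signals of 206 in M1, 333 in M2, 334 after Lamtor1 loss and 132 with Torin1. Ube2j1 shares 16 bases with Ear1 and Ear7 on the opposite strand and had signals of 6107, 5510, 5390 and 2929 in the same order. Both were chosen for their shared bases after the values were seen.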
